A study of Bos taurus with 16 samples.

Results

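The genes described here encode the follicular basal lamina and versican. The basal lamina is the sheet of extracellular matrix that separates the granulosa cells of an ovarian follicle from the theca cells around them, and versican is a large chondroitin sulfate proteoglycan of follicular fluid and of the matrix between cells. The members were named by symbol as COL4A1, COL4A2, LAMA1, LAMB1, LAMB2, LAMC1, NID1, NID2, HSPG2 and VCAN, and the counts of all RefSeq accessions of a gene were summed. Of these 10 genes 7 had counts matched to their symbol, among 20629 features in all. For COL4A2, LAMA1 and HSPG2 no accession of the gene table occurred in the files, and they were not analysed here. Their reads may lie among the 8200 transcripts that matched no symbol (3.61% of counts), so whether they were expressed is not known.

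The series holds 16 RNA-seq libraries of cattle, of which 9 are labelled control and 7 treatment. Per the labels, all came from lactating Holstein cows of 1 dairy herd, within a cohort of 45 cows. The labels do not say what treatment stands for. The series title concerns the time after a uterine disease has resolved, and the cohort was followed for metritis, which was treated with ceftiofur. In every cow the dominant follicle was aspirated through the vagina at 63 ± 3 days after calving, after gonadotropin-releasing hormone and prostaglandin had been given to synchronise ovulation. The cells were pelleted and washed as granulosa cells, while the tissue field reads blood for all libraries. The labels do not tie a library to a cow, and the p-values given here therefore rest on library-to-library spread alone, which may be technical.

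A basal lamina is built on networks of type IV collagen and of laminin. Type IV collagen is a triple helix of alpha chains, and laminin is a trimer of 1 alpha, 1 beta and 1 gamma chain. Nidogens bind to both networks, and the heparan sulfate proteoglycan perlecan (HSPG2) is held in them. In the ovary, granulosa cells make components of the follicular basal lamina and, in large follicles, patches of similar matrix between the cells. Versican binds hyaluronan and is cut by proteases of the ADAMTS family around ovulation.

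The libraries were of 2 kinds by the level of INHA, the alpha subunit of the granulosa hormone inhibin. Levels are given in CPM, the counts of a gene per 1000000 counts in transcripts of its library. INHA lay between 1759 and 3041 CPM in 9 libraries, called granulosa-rich (control replicates 2, 3, 4, 7 and 8 and treatment replicates 4, 5, 6 and 7). It lay between 0.404 and 111 CPM in the other 7, called leukocyte-rich (control replicates 1, 5, 6 and 9 and treatment replicates 1, 2 and 3), and no library fell between 200 and 1000 CPM. These kinds come from the data and are not groups of the study, so differences between them are described without a test. In bulk RNA, fewer cells of a type and less RNA per cell cannot be told apart.

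Sums over the measured markers of other cells were compared between the kinds, granulosa-rich first. The sum was 15953 to 101300 against 67.6 to 3974 CPM for 10 granulosa markers. These include INHA, which set the kinds, so that difference was partly fixed by the rule. The sum was 14.4 to 947 against 5054 to 7365 CPM for 8 pan-leukocyte markers, and 17.3 to 1128 against 5468 to 9425 CPM for 9 monocyte and macrophage markers. It was 23.9 to 2324 against 401 to 11026 CPM for 8 fibroblast and stroma markers, and PDGFRB was at 0 counts in all granulosa-rich libraries. It was 4.05 to 136 against 22.1 to 185 CPM for 10 endothelial markers, 64.5 to 822 against 7.85 to 115 CPM for 7 pericyte and smooth muscle markers, and 52.3 to 885 against 1.11 to 21.7 CPM for 6 theca markers. It was 21.7 to 2576 against 15.4 to 600 CPM for 7 epithelial markers, and 0.915 to 15.6 against 27.6 to 1752 CPM for 2 platelet markers. Among the granulosa-rich libraries, treatment replicate 7 stood apart with 276 CPM of CYP19A1 (aromatase), against 8439 to 28576 CPM in the other 8. Treatment replicate 5 had the fewest features with a count (11395, other libraries 11803 to 15323).

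COL4A1 encodes the alpha 1 chain of type IV collagen, the common network collagen of basal laminae (NM_001166511.1, the only accession counted). In the granulosa-rich control libraries it lay at 2491, 1897, 4363, 2702 and 953 CPM (replicates 2, 3, 4, 7 and 8). In the granulosa-rich treatment libraries it lay at 1073, 721, 2681 and 10311 CPM (replicates 4, 5, 6 and 7). Treatment replicate 7 was the highest of all 16 libraries, and the groups overlapped. In the leukocyte-rich control libraries it lay at 62.8, 74.3, 190 and 35.0 CPM (replicates 1, 5, 6 and 9), and in the treatment libraries at 471, 775 and 27.5 CPM (replicates 1, 2 and 3). The median was 2491 CPM in the granulosa-rich and 74.3 CPM in the leukocyte-rich libraries, a 33.5-fold ratio. Of 9 granulosa-rich libraries 8 lay above every leukocyte-rich library, and the exception was treatment replicate 5, just under treatment replicate 2. With library sizes scaled by the trimmed mean of M-values (TMM) the kinds did not overlap, with at least 892 CPM against at most 682 CPM. The share of all features that did not overlap under this scaling is not given, so the separation cannot be read as particular to COL4A1.

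Markers of other matrix-making cells were set beside COL4A1. PECAM1, a defining endothelial gene, had no count in 6 of 9 granulosa-rich libraries and at most 0.647 CPM in the other 3, and CDH5, the endothelial cadherin, was at most 0.831 CPM there. The sum of all 10 endothelial markers was nevertheless 136 CPM in treatment replicate 7, the library highest for COL4A1, against 4.05 to 35.9 CPM in the other 8. PECAM1 and CDH5 were both at 0 CPM in treatment replicate 7, so its sum came from other markers of the list. The part of endothelial cells in its COL4A1 value was not tested. COL1A2, a chain of fibrillar type I collagen, ran from 2.30 CPM in control replicate 2 to 1096 CPM in control replicate 8, which had 2491 and 953 CPM of COL4A1. In the granulosa-rich libraries the theca sum was highest in treatment replicate 7 (885 CPM) and, among controls, in control replicate 4 (861 CPM). COL4A1 was 10311 and 4363 CPM there. The pericyte and smooth muscle sum was lowest in treatment replicate 7 (64.5 CPM) and highest in treatment replicate 4 (822 CPM). The part of these cells was not tested. In the 7 leukocyte-rich libraries the order of the libraries by COL4A1 was the same as their order by the summed stroma markers. Treatment replicates 2 and 1, with 775 and 471 CPM of COL4A1, held 11026 and 7860 CPM of these 8 markers, and treatment replicate 3, with 27.5 CPM, held 401 CPM. The part of stromal cells in the leukocyte-rich values was not tested.

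**Figure D1:**
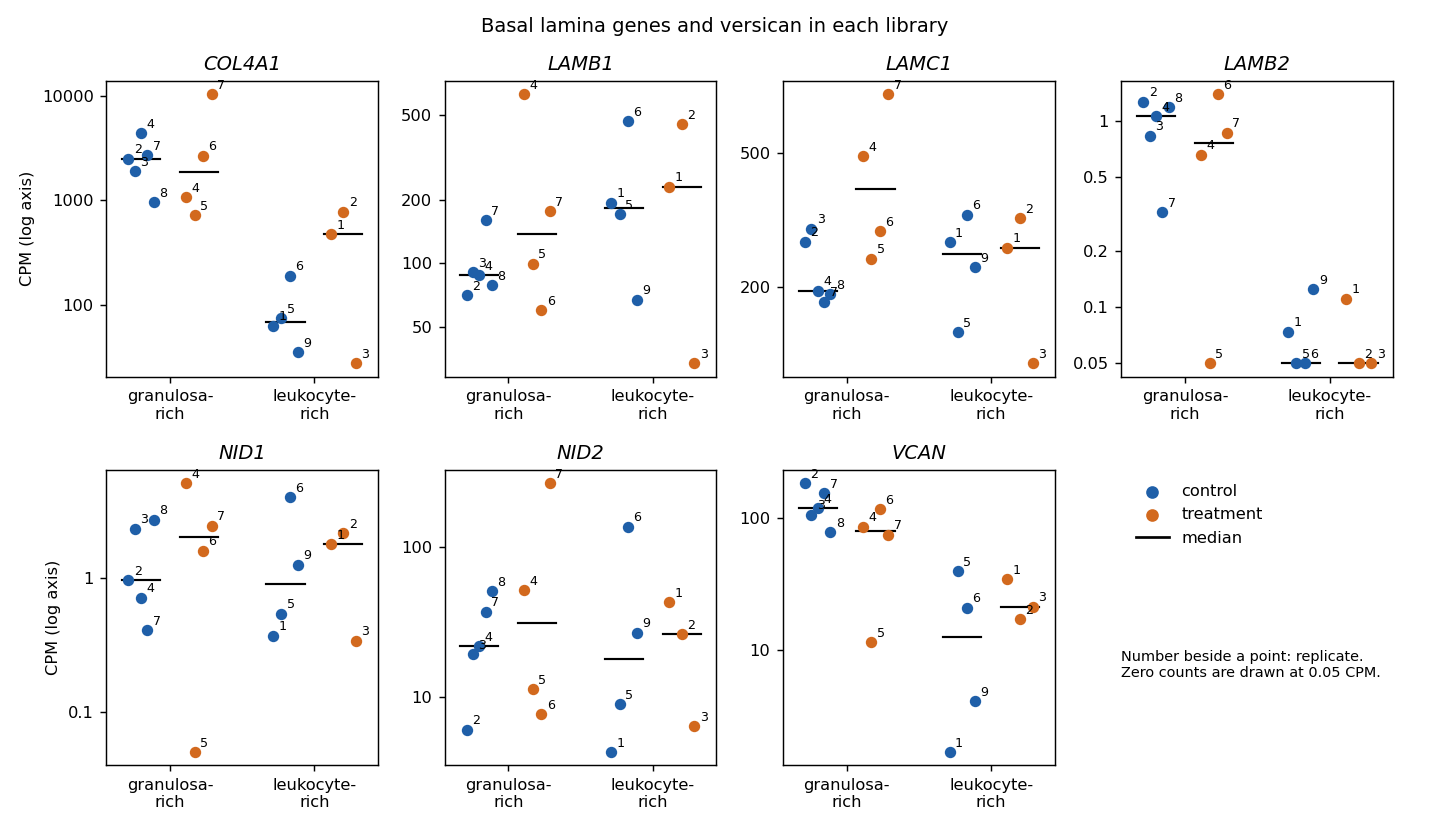
CPM of the 7 measured genes in each of 16 libraries (log axis), by kind of library and group; each point is 1 library with its replicate number and the bar is the median. COL4A1 lies between 721 and 10311 CPM in granulosa-rich and between 27.5 and 775 CPM in leukocyte-rich libraries, while LAMB1, LAMC1, NID1 and NID2 span similar ranges in both kinds.

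**Figure D2:**
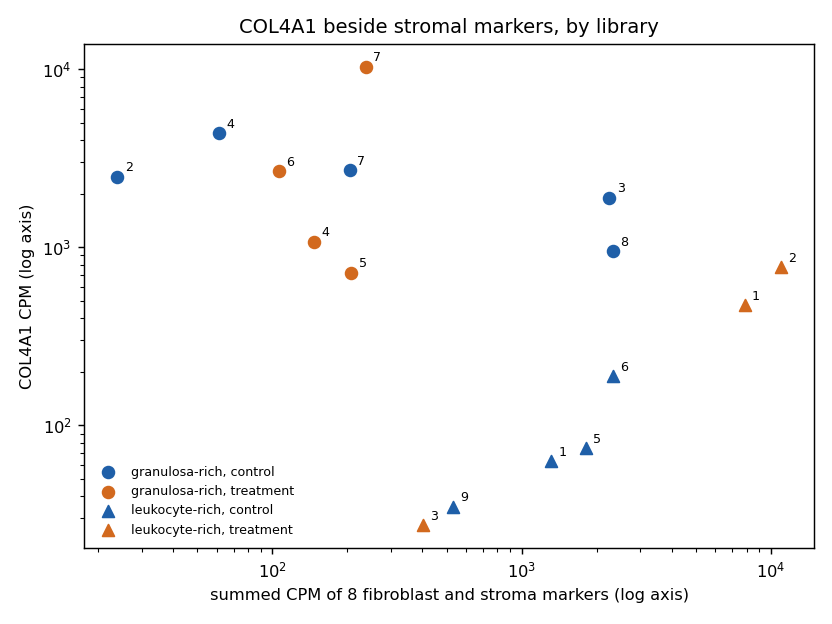
COL4A1 CPM against the summed CPM of 8 fibroblast and stroma markers (both log axes), 1 point per library with its replicate number. In the 7 leukocyte-rich libraries (triangles) both values rise in the same order, from treatment replicate 3 to treatment replicate 2, and the 9 granulosa-rich libraries (circles) do not follow that order.

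LAMB1 and LAMC1 had similar ranges in both kinds, and LAMB2 was detected mainly in granulosa-rich libraries. LAMB1, the beta 1 chain (NM_001206519.1), lay at 70.9, 90.9, 88.1, 160 and 79.1 CPM in the granulosa-rich control libraries and at 628, 99.8, 59.9 and 176 CPM in the granulosa-rich treatment libraries, in the order of replicates used above. Treatment replicate 4 was far above the others. In leukocyte-rich libraries LAMB1 lay at 193, 170, 471 and 67.3 CPM in control and at 230, 455 and 33.8 CPM in treatment. The leukocyte-rich median was 2.13-fold the granulosa-rich one (193 against 90.9 CPM), with overlapping ranges. LAMC1, the gamma 1 chain that most laminins share (NM_001206817.1), lay at 273, 298, 195, 181 and 191 CPM in granulosa-rich control and at 490, 243, 293 and 748 CPM in granulosa-rich treatment. Treatment replicates 4 and 7 exceeded every control library. LAMC1 in leukocyte-rich libraries lay at 272, 147, 328 and 229 CPM in control and 262, 320 and 119 CPM in treatment, and the medians of the kinds were 273 and 262 CPM. LAMB2, the beta 2 chain, was close to the detection limit. It had 4 to 16 counts in 8 granulosa-rich libraries (0.324 to 1.38 CPM) and 0 in treatment replicate 5, where a count of 0 allows up to 0.305 CPM. LAMB2 in leukocyte-rich libraries had 1 count in 3 libraries and 0 in 4, so that its level there was not measurable at this depth.

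The nidogens link laminin to type IV collagen. NID1 (NM_001101155.1) was low everywhere. It lay at 0.952, 2.31, 0.707, 0.405 and 2.70 CPM in granulosa-rich control and at 5.06, 0, 1.58 and 2.44 CPM in granulosa-rich treatment. The 0 in treatment replicate 5 allows up to 0.305 CPM. NID1 in leukocyte-rich libraries lay between 0.338 and 3.96 CPM with a median of 1.25, against a median of 1.58 CPM in the granulosa-rich ones. NID2 (NM_001102065.1) lay at 6.03, 19.2, 21.9, 37.1 and 50.6 CPM in granulosa-rich control and at 51.3, 11.2, 7.61 and 268 CPM in granulosa-rich treatment. Treatment replicate 7 was again the highest library, as for COL4A1 and LAMC1. NID2 in leukocyte-rich libraries lay at 4.27, 8.89, 137 and 26.9 CPM in control and at 42.8, 26.3 and 6.33 CPM in treatment, and the medians of the kinds were 21.9 and 26.3 CPM.

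VCAN was higher in most granulosa-rich libraries, with more overlap than COL4A1. It lay at 184, 106, 119, 154 and 78.0 CPM in the granulosa-rich control libraries and at 86.3, 11.5, 117 and 74.7 CPM in the granulosa-rich treatment libraries. In the leukocyte-rich libraries it lay at 1.70, 39.6, 20.9 and 4.12 CPM in control and at 34.5, 17.1 and 21.3 CPM in treatment. The medians were 106 and 20.9 CPM, a 5.09-fold ratio. All granulosa-rich libraries except treatment replicate 5 exceeded every leukocyte-rich library, and for VCAN that library lay above only 2 of the 7 leukocyte-rich ones, where for COL4A1 it lay above 6. None of the 7 genes separated the kinds without overlap, while 17.7% of 9653 tested features did (6.1% higher in granulosa-rich and 11.6% higher in leukocyte-rich libraries). Without treatment replicate 5, COL4A1, VCAN and LAMB2 did not overlap, all higher in granulosa-rich libraries, and without treatment replicate 2 COL4A1 did not. The share of all features without overlap is not given for these sets or for TMM scaling, so these counts cannot be read as particular to the members. LAMB2 was not among the 9653 tested features.

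VCAN was counted on 4 RefSeq transcripts, and the files do not tell which splice forms of the chondroitin sulfate region they hold. XM_005209719.3 held most counts, with a median share of 80.8% (57.5 to 92.0%) over the 9 granulosa-rich and 84.6% (60.9 to 100%) over the 7 leukocyte-rich libraries. XM_005209720.3 held a median of 12.1% and 10.3%, and NM_181035.2 a median of 7.29% and 2.90%. XM_015472358.1 held 31 of all VCAN counts in the granulosa-rich (0.287%) and 53 in the leukocyte-rich libraries (3.47%). Its share was at most 1.02% in any granulosa-rich library and between 1.61 and 4.74% in 5 leukocyte-rich libraries, while the other 2 of these held 23 and 33 VCAN counts and none of this transcript. Treatment replicate 5, with 113 VCAN counts, had the lowest share of XM_005209719.3 among the granulosa-rich libraries (57.5%, 95% Wilson interval 48.3 to 66.2%) and the highest of XM_005209720.3 (33.6%, 25.6 to 42.7%). How reads shared by these transcripts were assigned is not given in the sources used here, and the intervals cover counting error only.

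**Figure D3:**
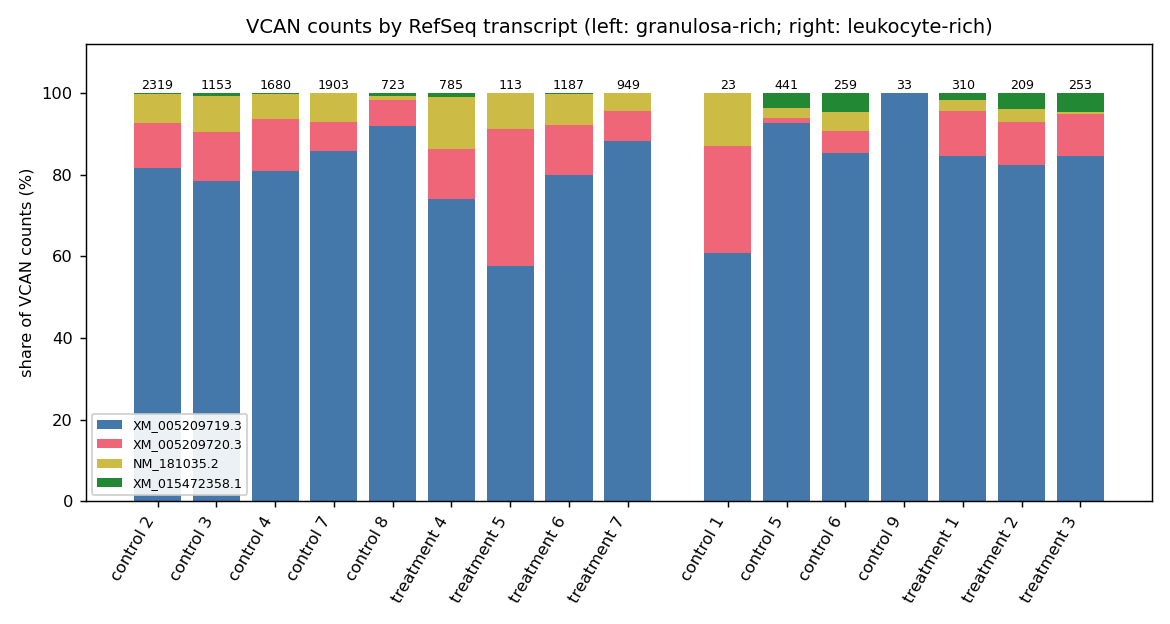
Share of VCAN counts (%) on each of 4 RefSeq transcripts in 16 libraries, granulosa-rich on the left and leukocyte-rich on the right, with the number of VCAN counts above each bar. XM_005209719.3 holds between 57.5 and 100% in every library, and XM_015472358.1 reaches 4.74% in leukocyte-rich and 1.02% in granulosa-rich libraries.

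Treatment and control were compared over all 16 libraries, which asks whether the genes differ with the label whatever the kind of library. Of the 7 genes 6 passed the filter on low counts, and LAMB2 did not. In edgeR's quasi-likelihood test none of the 6 passed an adjusted p of 0.05 (adjusted p = 0.999997 for each), and none had an unadjusted p under 0.05. Fitted values were above 0 for 5 of the 6, against 52.1% of all features, and each gene overlapped between the groups, as did all but 0.0104% of features. Over all 9653 features 0 passed (0.0%) and 1.69% (163 features) had an unadjusted p under 0.05, while DESeq2 called 3 features and limma-voom 0, none of them a member. VCAN had a log2 fold change of -0.91 ± 0.81 (SE), with a median of 34.5 CPM in treatment and 78.0 CPM in control, and was at -0.030 in limma-voom. LAMC1 was at 0.50 ± 0.30 (0.17 without treatment replicate 7), LAMB1 at 0.47 ± 0.56 (0.039 without treatment replicate 4), COL4A1 at 0.41 ± 1.09, NID2 at 0.68 ± 0.83 and NID1 at 0.29 ± 0.68 (SE). Without treatment replicate 7 COL4A1 was at -0.93 and NID2 at -0.69, and without treatment replicate 4 NID1 was at -0.17. With library kind added as a covariate, COL4A1 was at 1.14 and VCAN at -0.40, and none of the 6 passed.

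Within the 9 granulosa-rich libraries (5 control, 4 treatment) all 7 genes passed the filter and 0 were called, as were 0 (0.0%) of 9272 features. DESeq2 called 14 features, none of them a member. An unadjusted p under 0.05 was found for 1 member, LAMC1, and for 4.67% of all features (433). LAMC1 was at 243 to 748 CPM in treatment and 181 to 298 CPM in control, with a log2 fold change of 0.78 ± 0.32 (SE; edgeR, adjusted p = 0.983), and it was at 0.39 without treatment replicate 7. VCAN was at 11.5 to 117 CPM in treatment and 78.0 to 184 CPM in control, with a log2 fold change of -1.13 ± 0.53 (SE; edgeR, adjusted p = 0.983), and at -0.80 without treatment replicate 5. NID2 was at 1.40 ± 0.97 (SE) and COL4A1 at 0.30 ± 0.74, and without treatment replicate 7 these were -0.50 and -1.05. LAMB1 was at 0.96 ± 0.62 and NID1 at 0.53 ± 0.96, and without treatment replicate 4 these were -0.03 and -0.17. LAMB2 was at -0.55 ± 0.85 (SE), and at -0.16 without treatment replicate 5. Fitted values were above 0 for 5 of the 7 genes and below 0 for 2, against 52.9% above 0 over all features. Each gene overlapped between the groups, where 1.73% of all features did not. In the same comparison all 6 tested fibroblast and stroma markers were fitted below 0 (median -1.87, 0 called). Among them COL1A2 had a log2 fold change of -3.55 (edgeR, adjusted p = 0.983). It lay at 839 and 1096 CPM in control replicates 3 and 8 and at 2.30 to 27.6 CPM in the other controls. In treatment COL1A2 lay at 16.4 to 53.9 CPM. The summed stroma markers had a median of 204 CPM in control and 177 CPM in treatment. All 6 tested monocyte and macrophage markers (median 1.32) and all 7 tested pan-leukocyte markers (median 0.27) were fitted above 0, with 0 called. Treatment replicate 4, the highest granulosa-rich library for LAMB1 and NID1, had the highest monocyte and macrophage sum of these libraries (1128 CPM). Of 4 tested endothelial markers 3 were fitted above 0 (median 1.13, 0 called). The part of stromal, leukocyte, endothelial, theca and pericyte cells in the values of the members was not tested.

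Within the 7 leukocyte-rich libraries (4 control, 3 treatment) 6 of 7 genes passed the filter and 0 were called, as were 0 (0.0%) of 9912 features. DESeq2 called 1 feature, which was no member. COL4A1 was at 27.5 to 775 CPM in treatment and 35.0 to 190 CPM in control, with a log2 fold change of 2.17 ± 0.98 (SE; edgeR, adjusted p = 0.9996). It was at 1.41 without treatment replicate 2. Of the treatment libraries 2 of 3 exceeded every control library, and these held the highest stroma marker sums given above. All 7 tested stroma markers were fitted above 0 in treatment (median 1.43, 0 called). Granulosa markers were also higher in 1 of the 2 libraries: treatment replicate 1 had a granulosa marker sum of 3974 CPM and 1027 CPM of CYP19A1, against sums of 67.6 to 234 CPM in the other 6. Of 9 tested granulosa markers 7 were fitted above 0 (median 1.63, 0 called, 3 with an unadjusted p under 0.05). The 3 were CYP19A1, INHBA and INHA, the gene that set the kinds. The part of stromal and granulosa cells in the COL4A1 values was not tested. COL1A2 was at 2.05 ± 0.96 (SE) in the same comparison. VCAN was at 0.55 ± 0.95 (1.43 without control replicate 5 and 0.17 without control replicate 1), LAMB1 at 0.03 ± 0.87, LAMC1 at -0.09 ± 0.37, NID1 at -0.16 ± 0.94 and NID2 at -0.86 ± 1.21 (SE). Fitted values were above 0 for 3 of the 6, against 51.1% of all features. No member had an unadjusted p under 0.05, against 2.61% of all features (259), and each overlapped between the groups, where 3.83% of features did not (1.99% higher and 1.85% lower in treatment). Without control replicate 6, LAMB1 was at 0.69, NID1 at 0.99 and NID2 at 0.91.

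**Figure D4:**
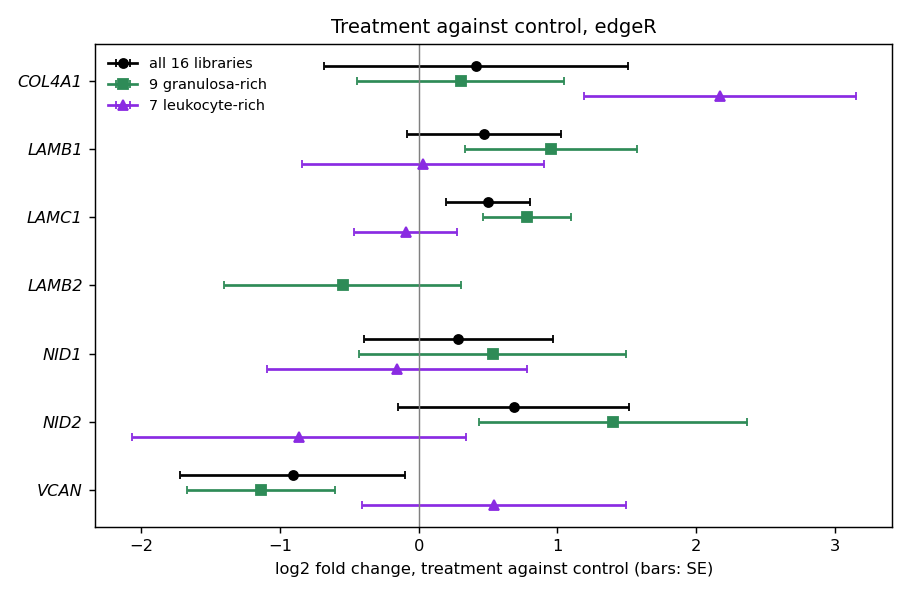
Log2 fold change of treatment against control for each measured gene in all 16 libraries, in the 9 granulosa-rich and in the 7 leukocyte-rich libraries; points are edgeR estimates and bars are standard errors. No estimate passed the test; COL4A1 in leukocyte-rich libraries (2.17) is highest and VCAN in granulosa-rich libraries (-1.13) is lowest among the points.

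Whether the difference between treatment and control depended on the kind of library was tested as an interaction. None of 6 members passed (edgeR, adjusted p from 0.931 to 0.988), and 0 (0.0%) of 9653 features did, with 5.34% (515) under an unadjusted p of 0.05. The difference of the log2 fold changes, granulosa-rich minus leukocyte-rich, was -1.85 ± 1.31 (SE) for COL4A1, -1.68 ± 1.09 for VCAN, 2.29 ± 1.67 for NID2 and 0.91 ± 0.51 for LAMC1.

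The genes were also compared with each other across libraries of 1 kind, on log2 CPM. In the 9 granulosa-rich libraries 21 pairs were computed, 16 with a positive and 5 with a negative Pearson r, and none passed in the two-sided exact permutation test (lowest adjusted p = 0.496 for r and 0.290 for Spearman's rho). LAMB1 and LAMC1, chains of the same laminin trimers, had r = 0.54 and rho = 0.32 (exact permutation p = 0.142 and 0.410, adjusted p = 0.496 and 0.740), and r was -0.60 without the 2 libraries farthest from the median of LAMB1. VCAN and COL4A1 had r = 0.48 and rho = 0.42 (exact permutation p = 0.196 and 0.270, adjusted p = 0.503 and 0.740). LAMB1 and LAMB2 had rho = -0.80 (exact permutation p = 0.0138, adjusted p = 0.290) and r = -0.17 (p = 0.608, adjusted p = 0.851).

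In the 7 leukocyte-rich libraries 15 pairs of 6 genes were computed. All 10 pairs without VCAN had a positive r, between 0.55 and 0.97, while the 5 pairs with VCAN lay between -0.28 and 0.39. NID1 and NID2 had r = 0.97 (two-sided exact permutation p = 0.00198, adjusted p = 0.0298) and rho = 0.86 (p = 0.0238, adjusted p = 0.0893), with 4 to 49 counts of NID1 per library. Without the 2 libraries farthest from the median of NID1 their r was 0.95 (exact permutation p = 0.0333). LAMB1 and LAMC1 had r = 0.80 (exact permutation p = 0.0365, adjusted p = 0.183) and rho = 0.93 (p = 0.00675, adjusted p = 0.0893), with r = 0.78 (p = 0.0417) without the 2 farthest libraries. In the granulosa-rich libraries NID1 and NID2 had r = 0.43 and rho = 0.57 (exact permutation p = 0.253 and 0.121, adjusted p = 0.503 and 0.697). Adjustment was made over the pairs of each kind of library apart. The libraries of a pair share their depth and cell content.

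For 3 members the genes of most similar pattern were sought among 6281 genes over the 9 granulosa-rich libraries, as a description. The highest of so many values over 9 libraries are large by selection. How far they rest on 1 library was not tested. VCAN was most like GOLM2, GGPS1 and MSMO1 (r = 0.98 each, rho = 0.92, 0.92 and 0.90). COL4A1 was most like PPARD (r = 0.98, rho = 0.93) and MTMR3 (r = 0.94, rho = 0.92). LAMC1 was most like UMPS (r = 0.96, rho = 0.97), RSL1D1 (r = 0.94, rho = 0.93) and TUBB6 (r = 0.94, rho = 0.90).

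Other genes of the matrix were taken from 7 lists with 146 symbols, of which 113 had counts matched to the symbol. None passed in any fit. In the granulosa-rich libraries 77 were tested (33 higher and 44 lower in treatment, median log2 fold change -0.13, all features 0.04), and 7 (9.09%) had an unadjusted p under 0.05, against 4.67% of all features. Of these 77, 4 did not overlap between treatment and control in CPM, where 1.73% of all features did not (1.18% higher and 0.55% lower in treatment). They were PLOD1, ITGB5 and CHSY1, lower in treatment, and SMOC2, higher in treatment. With TMM-scaled library sizes PLOD1 alone of the 77 did not overlap, where 1.47% of all features did not. PLOD1, a lysyl hydroxylase that modifies collagen chains, lay at 1503, 999, 944, 976 and 1030 CPM in control and at 613, 718, 855 and 654 CPM in treatment, with a log2 fold change of -0.80 ± 0.25 (SE; edgeR, adjusted p = 0.983). ITGB5, the beta 5 integrin subunit, lay at 1905 to 3503 CPM in control and 1165 to 1680 CPM in treatment (-1.04 ± 0.29, SE; edgeR, adjusted p = 0.983). SMOC2, a secreted calcium-binding protein of basal laminae, lay at 189 to 321 CPM in control and 347 to 616 CPM in treatment (0.69 ± 0.28, SE; edgeR, adjusted p = 0.983).

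By list in the granulosa-rich libraries, other basal lamina components had 3 of 5 tested genes higher in treatment (median 0.53), among them COL18A1 at 0.53 ± 0.76 and FBLN1 at 0.95 ± 0.90 (SE). SPARC, the most abundant gene of that list and a collagen-binding protein, was at -0.41 ± 0.53. Genes that modify, fold and export collagen and laminin had 5 of 16 higher (median -0.27), among them MIA3, which helps to export collagen from the endoplasmic reticulum, at -0.50 ± 0.23, and the prolyl isomerase PPIB at 0.16 ± 0.29. Receptors of the basal lamina had 4 of 14 higher (median -0.41), among them the collagen receptor DDR1 at -0.11 ± 0.28. The heparan sulfate proteoglycan SDC3 was at 1.43 ± 0.63, with 6.35 to 22.1 CPM in control and 15.4 to 147 CPM in treatment. SDC3 was higher in every leukocyte-rich than in any granulosa-rich library, and the part of leukocytes in its values was not tested. Partners of versican and hyaluronan had 7 of 11 higher (median 0.37). Among these TNFAIP6, which moves heavy chains onto hyaluronan, lay at 233 to 9088 CPM in control and at 64.4 to 25541 CPM in treatment, the highest being treatment replicate 7. LYVE1, a hyaluronan receptor, was at 1.87 ± 0.84 (0.397 to 30.8 CPM in control and 14.8 to 98.1 CPM in treatment). The mean of LYVE1 over all 16 libraries was 132 CPM, above every granulosa-rich value, and the part of leukocytes in its values was not tested. The link protein HAPLN3 was at -0.57 ± 0.49. HAS2, a hyaluronan synthase, lay between 0.297 and 40.1 CPM in these libraries. HAPLN1, a link protein that joins versican to hyaluronan, had counts in 1 library alone, at 0.405 CPM. Proteases that cut versican, with their partners, had 4 of 7 higher (median 0.03), among them ADAMTS1 at -3.55 ± 1.75 (24.7 to 3564 CPM in control and 8.75 to 603 CPM in treatment), ADAMTS4 at -2.57 ± 1.40 and FURIN, a protease that activates other proteases, at 0.03 ± 0.40. Enzymes of the glycosaminoglycan chains had 6 of 16 higher (median -0.13), among them CHSY1, which extends chondroitin chains, at -0.56 ± 0.31, CHPF at -0.20 ± 0.44 and CHPF2 at 0.08 ± 0.30. Proteases and inhibitors that act on the basal lamina had 5 of 9 higher (median 0.07), among them TIMP2 at 0.07 ± 1.04, and PLAT, a plasminogen activator, was at -0.85 ± 1.14.

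In the leukocyte-rich libraries 87 of the 113 genes were tested, with 61 higher and 26 lower in treatment (median 0.20, all features 0.01), and 2 (2.30%) had an unadjusted p under 0.05, against 2.61% of all features. Over both kinds 88 were tested, of which 13 (14.8%) were higher in every granulosa-rich than in any leukocyte-rich library, and 12 (13.6%) were the other way round, against 6.1% and 11.6% of all features. Among the 13, chosen for naming after its values were seen, was COL4A3, a further type IV collagen chain, at 21.2 to 214 CPM in granulosa-rich libraries and 0 to 5.56 CPM in leukocyte-rich ones. DDR1 lay between 304 and 768 CPM in granulosa-rich and between 5.06 and 41.7 CPM in leukocyte-rich libraries. CD44, the cell surface receptor of hyaluronan, lay between 37.4 and 86.6 CPM in leukocyte-rich and between 0.162 and 6.70 CPM in granulosa-rich libraries. MMP14, a membrane-bound metalloprotease, lay between 1394 and 4134 CPM in leukocyte-rich and between 50.8 and 716 CPM in granulosa-rich libraries.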

How the data were processed

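Per the deposited files, values are raw, unnormalized read counts for each RefSeq accession, 1 file per library. The authors used cutadapt, Bowtie2 and SAMtools, per the submitters' processing notes; their versions, the build and how multi-mapping reads were treated are not given in the sources used. Per the labels' protocols, the poly(A) libraries carry no strand information, so overlapping and antisense genes cannot be told apart. Libraries held 8111862 to 14348753 counts, and 3 counts correspond to 0.212 to 0.375 CPM. Genomic records (0.71 to 1.92% of counts) were left out. Of 27173 transcript accessions 18973 matched a symbol in RefSeq's gene table of ARS-UCD2.0, versions ignored, and the others were kept as single features. Transcript lengths were not used, so levels are not compared between genes.

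Treatment was compared with control by edgeR 4.0.16 (R 4.3.3; TMM, filter on low counts by group, robust glmQLFit, Benjamini-Hochberg over all features, threshold 0.05). SE is the log2 fold change over the root of F. On simulated data for all 16 libraries (9196 genes), 51.1% of planted changes of 2 and 85.5% of planted changes of 4 on the log2 scale were recovered. In the granulosa-rich libraries (8720 genes) these were 38.8% and 82.4%, and in the leukocyte-rich ones (9543 genes) 49.1% and 93.5%. Changes were planted only in genes with a mean above 2 CPM, in counts simulated without kinds of library. These shares do not give the power for a single member. Log2 CPM used a prior count of 1. The members, the 9 marker lists and 7 matrix lists and the rule for names (all members, fixed partners, the 3 most abundant genes of each matrix list, and the 3 genes most correlated with each of VCAN, COL4A1 and LAMC1) were chosen with earlier results of these data known. Not every gene named by the rule is given, and for COL4A1 1 of them is not reported here. Alternatives were other scalings, no filter, DESeq2 1.42.0, limma-voom 3.58.1, the replicate block, the kind of library as a covariate, the most abundant accession, and each library left out.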

Additional observations from a re-analysis of the deposited data

How the results depend on the processing

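No member was called under any alternative run in the 3 comparisons of treatment and control, whether over all 16 libraries, the granulosa-rich or the leukocyte-rich ones (0 with each library left out). With CPM on TMM-scaled library sizes 1 member, COL4A1, did not overlap between the kinds of library. With each library left out the number lay between 0 and 3. The share of all features is not given for these settings, so these numbers cannot be read as particular to the members. With library size alone the median log2 fold change of all features in the granulosa-rich fit was 0.19 instead of 0.04. In limma-voom over 16 libraries NID1 was at -0.051 and VCAN at -0.030 instead of -0.91. The correlation of LAMB1 with LAMC1 was -0.60 without the 2 libraries farthest from the median. Chosen after seeing the data, TMM-scaled CPM left 1 matrix gene without overlap between treatment and control in the granulosa-rich libraries instead of 4. The share of all features without overlap was 1.47% with this scaling and 1.73% without it.

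The labels do not say what a replicate number marks, and the libraries were not treated as paired. Of 7 same-numbered pairs 3 had deviations from the group means that correlated above 0.1 (range -0.61 to 0.60), and 0 correlated best with their own number. The 3 are the pairs of 1 kind of library and the other 4 join both kinds, so these correlations follow the kind and do not test pairing. With the replicate block LAMB1 was at -0.048 over 16 libraries and COL4A1 at -0.57 in the granulosa-rich ones, and no member was called. Among the granulosa-rich libraries only replicate numbers 4 and 7 occur in both groups. The block fit there rests on these pairs and has few residual degrees of freedom, so the absence of calls decides little. In the leukocyte-rich libraries the block left no residual degrees of freedom and was not run.

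With each library left out, values over 16 libraries ran from -0.93 to 0.87 for COL4A1, 0.039 to 0.85 for LAMB1, -0.17 to 0.61 for NID1 and -0.69 to 1.25 for NID2. In the granulosa-rich libraries they ran from -1.05 to 0.62 for COL4A1, -0.032 to 1.44 for LAMB1, -1.02 to -0.16 for LAMB2 (7 of 9 fits), -0.17 to 0.94 for NID1 and -0.50 to 1.78 for NID2. In the leukocyte-rich libraries they ran from -0.82 to 0.69 for LAMB1, -0.37 to 0.19 for LAMC1, -0.57 to 0.99 for NID1, -1.47 to 0.91 for NID2 and 0.17 to 1.43 for VCAN. The cause was not tested. Depth limits LAMB2 and NID1, which had at most 16 and 49 counts in any library.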
